A study of Mus musculus with 2 samples.

Results

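A set of 10 genes of neutrophil granules and the neutrophil surface was analysed, namely S100a8, S100a9, Retnlg, Csf3r, Ngp, Ltf, Camp, Elane, Mpo and Lcn2. They were given as a list by symbol and were matched to their Ensembl identifiers in GENCODE M21, and all 10 were present once among the 38320 gene entries of each library. The libraries came from adult male C57/Bl6 mice of the genotypes Foxf1 fl/fl, the control, and αSMACreER;Foxf1 fl/fl, the knockout. Both groups of mice had received carbon tetrachloride (CCl4), a hepatotoxin, for 5 weeks, so there was no uninjured group. In the knockout the α-smooth muscle actin promoter drives a tamoxifen-inducible Cre recombinase, which acts in myofibroblasts and other cells that express that actin. Per the study's methods, tamoxifen was injected repeatedly during the injury period to induce the deletion. Liver cell suspensions were plated for 2 hours, the cells that adhered were kept as stromal cells, and RNA was pooled within each genotype into 1 library. LoxP sites flank the part of Foxf1 that encodes its DNA-binding domain in both genotypes, and Foxf1 itself was not analysed here. The number of mice in each pool is not given in the sources used here. With 1 library per genotype no difference has a replicate check, and the comparison is between these libraries.

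Neutrophils carry antimicrobial proteins and proteases in granules that are filled in a fixed order during maturation. Primary granules, which hold myeloperoxidase and serine proteases, are filled in promyelocytes, secondary granules with lactoferrin and cathelicidin are filled later, and gelatinase granules later still. In CCl4-injured liver, neutrophils enter the tissue along with monocytes. The calprotectin subunits S100A8 and S100A9 are abundant in the cytosol of neutrophils and are also made by monocytes.

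The 9 members that encode calprotectin, resistin-like gamma or granule proteins were all lower in αSMACreER;Foxf1 fl/fl cells, by 1.98-fold for Retnlg to 8.52-fold for Elane, while Csf3r, the receptor for the growth factor G-CSF, differed by less than 1.5-fold. Values are FPKM, which the authors scaled to transcript length and to mapped fragments. Fold differences were taken after the αSMACreER;Foxf1 fl/fl values were divided by 1.02, the median ratio over 12011 genes with at least 1 FPKM in both libraries. Log2 fold changes are log2(FPKM + 0.1) of αSMACreER;Foxf1 fl/fl minus Foxf1 fl/fl, which makes differences of low genes look smaller than they are. All 10 members averaged 1 FPKM or more over the libraries, and 9 were at least 1.5-fold lower and 0 at least 1.5-fold higher. Among all 12861 genes that averaged 1 FPKM or more, 13.2% were lower by this measure and 12.9% higher. At 2-fold, 8 members were lower and 6.22% of all genes were, and by any amount 9 members were lower and 49.6% of all genes were. After scaling to an equal FPKM sum, 1121 of all genes were lower and 2820 higher, against 1697 and 1662. The median log2 fold change of the members was −1.33, against 0.0058 over all genes. In bulk RNA, fewer cells of a type and less RNA per cell cannot be told apart.

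**Figure D1:**
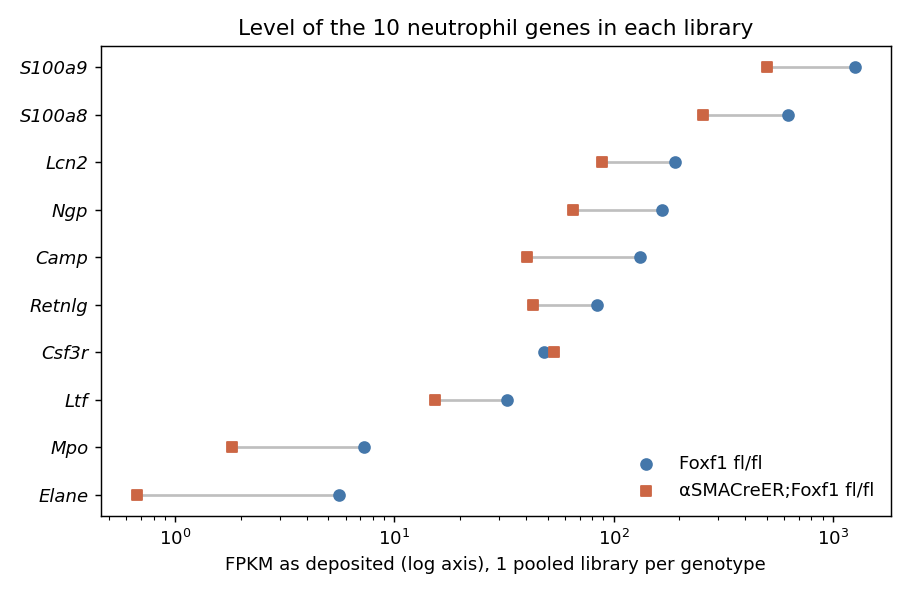
FPKM of each of the 10 genes on a log axis, with a circle for the Foxf1 fl/fl library and a square for the αSMACreER;Foxf1 fl/fl library. The square lies to the left of the circle for 9 genes, and for Csf3r (48.4 and 53.6 FPKM) it lies slightly to the right.

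S100a9 had the highest level of the members in both libraries. It encodes the larger subunit of calprotectin, a calcium- and zinc-binding protein, and lies on chromosome 3 from 90692632 to 90695721 of GRCm38 (ENSMUSG00000056071). S100a9 had 1258 FPKM in Foxf1 fl/fl cells and 504 FPKM in αSMACreER;Foxf1 fl/fl cells, a log2 fold change of −1.35 (approximate counting interval −1.43 to −1.27). S100a8, for the smaller subunit, lies 22.6 kb away (ENSMUSG00000056054, chromosome 3 from 90668978 to 90670035) and had 625 and 256 FPKM, a log2 fold change of −1.31 (−1.43 to −1.20). The subunits kept nearly the same proportion, with an S100a9 to S100a8 ratio of 2.01 in Foxf1 fl/fl cells and 1.97 in αSMACreER;Foxf1 fl/fl cells. Together the calprotectin genes made up 73.9% of the summed FPKM of the 10 members in Foxf1 fl/fl cells and 71.1% in αSMACreER;Foxf1 fl/fl cells. Of the FPKM summed over the entries kept, 1 for each symbol, the 10 members held 0.343% in the first library and 0.163% in the second.

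The intervals here are exact binomial 95% intervals of the ratio of estimated reads, taken without the pseudocount. They cover counting error only and not differences between mice. Low FPKM values come in steps of 1 read, and the size of these steps gave about 9760000 mapped reads for the Foxf1 fl/fl library and 11330000 for the αSMACreER;Foxf1 fl/fl library. Only 53.3% and 54.8% of the low values used lay within 0.1 of a whole read, so these numbers are rough.

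The primary granule genes Elane and Mpo had the lowest levels of the members. Elane encodes neutrophil elastase (ENSMUSG00000020125, chromosome 10 from 79886247 to 79888215) and had 5.60 FPKM in Foxf1 fl/fl cells and 0.669 FPKM in αSMACreER;Foxf1 fl/fl cells, which correspond to about 43 and 6 reads. Its log2 fold change was −2.91, with a wide interval of −4.61 to −1.84. Elane averaged above 1 FPKM only through its Foxf1 fl/fl value. Only 103 of the 12861 genes had a lower log2 fold change than Elane. Mpo encodes myeloperoxidase, which makes hypochlorous acid from hydrogen peroxide (ENSMUSG00000009350, chromosome 11 from 87793581 to 87804413). Mpo had 7.25 and 1.82 FPKM, about 180 and 53 reads, and a log2 fold change of −1.96 (−2.47 to −1.56). The interval of Mpo overlaps those of Elane and of Camp, a secondary granule gene, so the sizes of these differences were not told apart beyond counting error. With a pseudocount of 1 FPKM, Mpo came to −1.57 and Camp to −1.72. An antisense gene, Gm11505, overlaps Mpo, and whether the counting used strand is not given in the sources used here.

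The 4 secondary granule genes were lower by 2.17-fold to 3.35-fold. Camp encodes the cathelicidin antimicrobial peptide (ENSMUSG00000038357, chromosome 9 from 109847379 to 109849617) and had 133 FPKM in Foxf1 fl/fl cells and 40.3 FPKM in αSMACreER;Foxf1 fl/fl cells, a log2 fold change of −1.74 (−1.96 to −1.54). Ngp, for neutrophilic granule protein, a relative of the cathelicidins and cystatins (ENSMUSG00000032484, chromosome 9 from 110419747 to 110423012), had 167 and 65.7 FPKM, a log2 fold change of −1.37 (−1.50 to −1.25). Ltf encodes lactoferrin, an iron-binding protein (ENSMUSG00000032496, chromosome 9 from 111019271 to 111042767), and had 32.7 and 15.3 FPKM, a log2 fold change of −1.12 (−1.29 to −0.95). Camp thus differed most in this group, and its interval did not overlap those of the other members of the group. Lcn2 encodes lipocalin 2, which binds bacterial siderophores and is also made by injured hepatocytes and other cells (ENSMUSG00000026822, chromosome 2 from 32384633 to 32388252). Lcn2 had 189.9 and 88.6 FPKM, a log2 fold change of −1.12 (−1.23 to −1.02).

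Retnlg encodes resistin-like gamma, a secreted protein of neutrophils (ENSMUSG00000022651, chromosome 16 from 48872621 to 48874496). Retnlg had 83.7 FPKM in Foxf1 fl/fl cells and 42.9 FPKM in αSMACreER;Foxf1 fl/fl cells, a log2 fold change of −0.99 (−1.25 to −0.72), the smallest difference among the 9. Csf3r (ENSMUSG00000028859, chromosome 4 from 126024550 to 126044440) had 48.4 and 53.6 FPKM, a log2 fold change of 0.12 (0.03 to 0.22). Of all genes tested, 59.2% had a lower log2 fold change than Csf3r, whereas between 0.801% and 6.34% had a lower one than the other 9 members. The order of levels was S100a9, S100a8, Lcn2, Ngp, Camp, Retnlg, Csf3r, Ltf, Mpo and Elane in Foxf1 fl/fl cells. In αSMACreER;Foxf1 fl/fl cells Csf3r moved from the seventh to the fifth place and Camp from the fifth to the seventh, and the other places were the same. The S100a9 to Csf3r ratio was 26.0 in Foxf1 fl/fl cells and 9.39 in αSMACreER;Foxf1 fl/fl cells, and the Csf3r to Mpo ratio was 6.67 and 29.5.

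**Figure D2:**
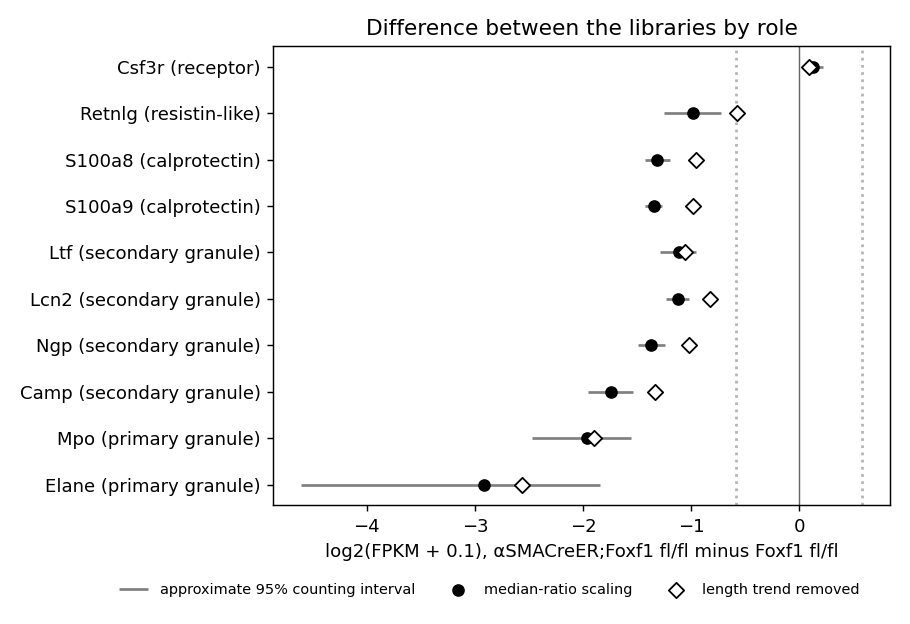
Log2 fold change of each gene (filled circles), its approximate 95% counting interval (grey lines, counting error only) and its value after the trend with transcript length was removed (open diamonds). Dotted lines mark 1.5-fold. Csf3r (0.12) is at the top and Elane (−2.91) at the bottom, and the interval of Mpo overlaps those of both Elane and Camp.

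Across all genes the difference between the libraries followed transcript length, and many members are short. The longest annotated transcript had a median of 1103 bases over the members and 3066.5 bases over all genes, and 5 members have none longer than 1000 bases. The shortest 10% of all genes, with transcripts up to 983 bases, had a median log2 fold change of −0.40, and the longest 10% had 0.42. Of the 743 genes with a longest transcript between that of S100a8 (498 bases) and 1000 bases, 33.5% were at least 1.5-fold lower. Genes were divided by length into 20 groups and each group's median was taken off. The members' median log2 fold change was then −1.002, and 8 of the 10 remained at least 1.5-fold lower, where 11.1% of all genes were. Retnlg came to −0.58, slightly short of 1.5-fold, and the lowest values were those of Elane (−2.56) and Mpo (−1.90). Mpo and Ltf, with longest transcripts of 2750 and 2743 bases, moved by only 0.06. The part of transcript length in the members' difference was not tested beyond this subtraction.

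**Figure D3:**
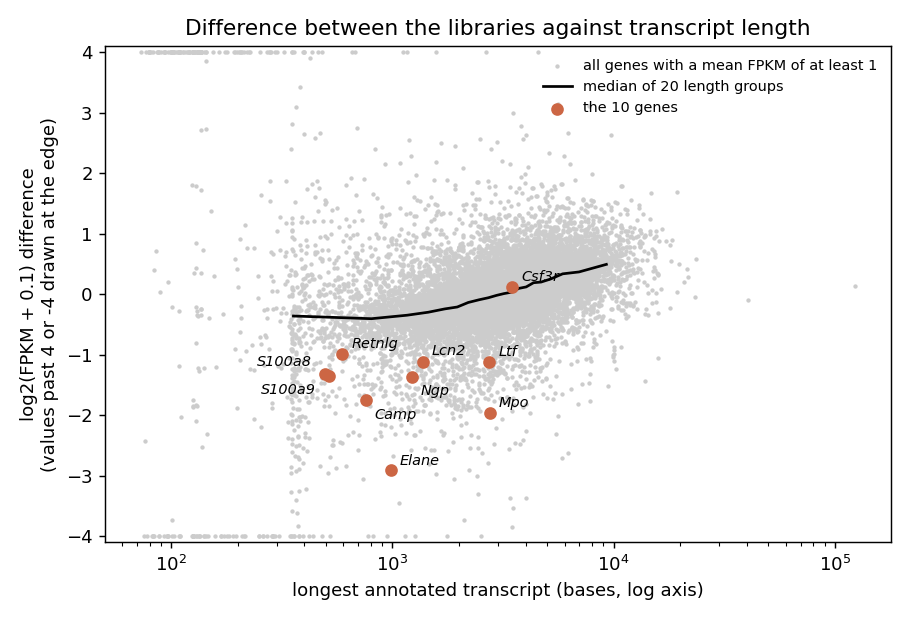
Log2 fold change against the longest annotated transcript of each gene (bases, log axis), with all genes in grey, the median of 20 length groups as a line and the 10 genes labelled. All members except Csf3r lie below the line, and the distance is largest for Elane.

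The upstream sequences of 6 members are printed because these genes span the range from the largest difference to the smallest. RefSeq windows of 250 bases before the annotated start were used (build GRCm38.p6), written 5′ to 3′ on the strand of the gene, and all 10 members had a window. Capitals mark letters associated with C/EBP factors (GCAAT), PU.1 (GAGGAA) or the TATA box (TATAAA), read on either strand, so that the reverse complement is capitalised too. In S100a8 a PU.1 and a TATA match touch and form a single run of capitals. C/EBP factors and PU.1 are known to drive granule genes during maturation.
Elane, chr10:79886062-79886311, plus strand: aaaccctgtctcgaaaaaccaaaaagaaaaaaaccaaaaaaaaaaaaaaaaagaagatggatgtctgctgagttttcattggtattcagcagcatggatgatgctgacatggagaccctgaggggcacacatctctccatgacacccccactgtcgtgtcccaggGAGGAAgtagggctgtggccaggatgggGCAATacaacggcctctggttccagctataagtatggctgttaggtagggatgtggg
Mpo, chr11:87793534-87793783, plus strand: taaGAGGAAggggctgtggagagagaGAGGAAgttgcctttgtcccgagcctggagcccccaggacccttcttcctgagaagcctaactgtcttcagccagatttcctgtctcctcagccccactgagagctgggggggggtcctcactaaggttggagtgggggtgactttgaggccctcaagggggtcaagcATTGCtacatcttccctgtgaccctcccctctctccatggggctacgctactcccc
Ngp, chr9:110419558-110419807, plus strand: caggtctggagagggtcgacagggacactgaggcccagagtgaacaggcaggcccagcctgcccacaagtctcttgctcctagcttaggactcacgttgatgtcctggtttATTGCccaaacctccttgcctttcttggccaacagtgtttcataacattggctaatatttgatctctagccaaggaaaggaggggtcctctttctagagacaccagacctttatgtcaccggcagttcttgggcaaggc
S100a8, chr3:90668821-90669070, plus strand: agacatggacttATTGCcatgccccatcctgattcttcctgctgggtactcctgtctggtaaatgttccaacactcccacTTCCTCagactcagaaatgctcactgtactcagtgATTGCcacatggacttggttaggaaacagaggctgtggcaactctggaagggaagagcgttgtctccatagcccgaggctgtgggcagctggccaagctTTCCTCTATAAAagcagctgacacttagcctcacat
S100a9, chr3:90695722-90695971, minus strand: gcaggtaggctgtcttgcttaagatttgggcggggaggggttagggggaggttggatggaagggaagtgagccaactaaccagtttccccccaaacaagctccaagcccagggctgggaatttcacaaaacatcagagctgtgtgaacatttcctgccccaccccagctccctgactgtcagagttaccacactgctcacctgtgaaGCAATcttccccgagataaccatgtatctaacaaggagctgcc
Csf3r, chr4:126024409-126024658, plus strand: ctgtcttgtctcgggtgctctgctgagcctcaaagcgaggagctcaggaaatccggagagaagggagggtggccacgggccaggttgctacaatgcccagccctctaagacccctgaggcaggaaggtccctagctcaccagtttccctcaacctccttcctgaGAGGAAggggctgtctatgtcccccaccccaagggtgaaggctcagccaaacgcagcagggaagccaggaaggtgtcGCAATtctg
GCAAT occurred in the windows of all 10 members, Csf3r included, and in 23.1% of the 32851 windows in the table. These letters were chosen after the members' windows had been seen, so the count is a description and supports nothing. GAGGAA occurred in 6 of the 10 members and in 23.3% of all windows, and TATAAA in 1 and in 12.4%. Among the other primary granule and progenitor genes GCAAT occurred in 0 of 5 windows, among the mature neutrophil surface genes in 3 of 15, and among the acute phase genes in 4 of 7. In Camp, Lcn2, Mpo, Elane and Csf3r the GCAAT letters lie within the longer gene that GENCODE annotates.

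Of the other genes listed for the primary granule and its progenitors, Prtn3 and Ctsg were lower in αSMACreER;Foxf1 fl/fl cells, and Ctsc and Srgn differed by less than 1.5-fold. Prtn3, which encodes proteinase 3 and is the nearest neighbour of Elane on chromosome 10 at 3.1 kb, had 19.3 FPKM in Foxf1 fl/fl cells and 3.86 FPKM in αSMACreER;Foxf1 fl/fl cells, a log2 fold change of −2.32 (−2.92 to −1.83). Ctsg, for cathepsin G, had 2.57 and 0.323 FPKM, about 20 and 3 reads, and a log2 fold change of −2.68 with an interval from −5.37 to −1.22. Ctsc, which encodes the protease that activates these enzymes and is expressed in macrophages as well, had 389 and 436 FPKM, and Srgn, the granule proteoglycan serglycin of many blood cells, had 1572 and 1288 FPKM. Of the 6 other genes on this list 4 passed the filter, and 2 were at least 1.5-fold lower and 0 higher. Ctsg passed only through its Foxf1 fl/fl value. Prss57, with 0.724 and 0.768 FPKM, and Ms4a3, with 0.731 FPKM and listed at 0, did not pass and were named after their values were seen.

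Among 12 other genes listed for secondary and gelatinase granules, 5 were at least 1.5-fold lower and 0 higher, with a median of −0.50. With the length trend removed 3 were lower and 1, Arg1 at 0.72, was higher, with a median of −0.26, and Mmp8 (−0.51) and Pglyrp1 (−0.31) no longer passed 1.5-fold. Mmp8, neutrophil collagenase, had 5.85 and 3.90 FPKM, a log2 fold change of −0.60 (−1.01 to −0.22), and Mmp9, gelatinase B, had 6.76 and 5.95 FPKM, a log2 fold change of −0.21 (−0.50 to 0.09). Mmp9, a protein of the granules filled last, thus did not pass 1.5-fold, and its interval included no change. The other lower genes were Fcnb (−1.96), Wfdc21 (−1.69), Hp (−1.34) and Pglyrp1 (−0.66), of which all but Hp were named after their values were seen. Fcnb, with 2.54 and 0.59 FPKM, averaged above 1 FPKM only through its Foxf1 fl/fl value. Hp encodes haptoglobin, which hepatocytes secrete in large amounts. Lyz2, lysozyme of macrophages and neutrophils, had 3682 and 3395 FPKM, Arg1 had 230 and 314 FPKM, and Adam8 had 71.6 and 103.6 FPKM. Which cells gave the Arg1 RNA was not tested, so its value may not be that of a granule gene. The stefin A genes encode cysteine protease inhibitors and have near-identical copies, so their values are uncertain. Of 6 listed, 3 averaged 1 FPKM or more, and Gm5483 (−1.49) and Stfa2 (−0.73, with about 4 and 3 reads) were lower by 1.5-fold or more while Stfa2l1 had −0.34. Only Gm5483 was so with the length trend removed, at −1.28. Stfa2 averaged above 1 FPKM only through its Foxf1 fl/fl value.

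Genes of the mature neutrophil surface that averaged 1 FPKM or more, leaving out Ly6g, had log2 fold changes from −0.93 to 0.38. Of 17 genes listed 14 averaged 1 FPKM or more, Ly6g among them, for which no fold is given. Of the rest of these 14, 3 were lower by 1.5-fold or more and 0 higher. Cxcr1 (0.119 and 0.799 FPKM), Mrgpra2a (0.112 and 0.097) and Mrgpra2b (0.336 and 0.097) did not pass and were named after their values were seen. Ly6g encodes the surface protein that defines mouse neutrophils. It had 9.82 FPKM, about 71 reads, in Foxf1 fl/fl cells and is listed at 0 in αSMACreER;Foxf1 fl/fl cells. Ly6g has close relatives in its gene cluster among which reads can be split, and whether this gave the 0 was not tested. The deposited status of Ly6g was OK in both libraries, so neither value was marked as a failed estimate. Cxcr2, the chemokine receptor that guides neutrophils, had 1.55 and 1.88 FPKM, a log2 fold change of 0.24 (−0.32 to 0.86), and Cd177 had 9.74 and 6.57 FPKM, a log2 fold change of −0.59 at the threshold. The other lower genes, named after their values were seen, were Trem3 (−0.76) and Ltb4r1 (−0.93). Clec4e (485 and 514 FPKM), Clec4d (288 and 219), Ptafr (113 and 135) and C5ar1 (97.7 and 95.2) had the highest means over both libraries, and macrophages express them too. With the length trend removed only Ltb4r1 among those with a fold was lower by 1.5-fold or more, at −0.63.

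Of the transcription factors that drive granulocyte maturation, 3 of 8 analysed were at least 1.5-fold lower and 0 higher, and with the length trend removed 2 were, since Cebpb came to −0.49. Cebpe, which is needed for secondary granule genes, had 3.004 and 1.35 FPKM, about 31 and 16 reads, and a log2 fold change of −1.12 (−2.16 to −0.28). Cebpb had 678 and 401 FPKM (−0.78), and Cebpd had 165 and 102 FPKM (−0.72). Spi1, which encodes PU.1 and is shared with macrophages, had 329 and 315 FPKM, and Cebpa had 35.8 and 26.6 FPKM. Irf8 of this list was not analysed here. Of 5 NADPH oxidase genes analysed, which make the superoxide that Mpo ultimately uses, 0 passed 1.5-fold in either direction, and Cybb had 164 and 235 FPKM, a log2 fold change of 0.49. Ncf4 had 192 and 138 FPKM (−0.50), Ncf1 had 104.6 and 124 FPKM (0.22), and Rac2 had 108 and 96.1 FPKM (−0.19). Cyba of this list was not analysed here.

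Each of the 8 other S100 genes that averaged 1 FPKM or more had a log2 fold change smaller in size than those of S100a8 and S100a9. They ranged from −0.73 to −0.31 in log2 fold change, with a median of −0.56, and 4 of them were lower by 1.5-fold or more. S100a6, the nearest expressed gene before S100a8 at 44.8 kb, had 425 and 271 FPKM (−0.68), S100a4 had 637 and 392 FPKM (−0.73), S100a10 had 360.3 and 284 FPKM (−0.37), and S100a11 had 396 and 326 FPKM (−0.31). With the length trend removed 0 of these 8 passed 1.5-fold, whereas S100a8 (−0.95) and S100a9 (−0.98) did. S100g, 1 of these 8, had about 7 and 6 reads and an interval of −2.31 to 1.33. That interval holds the values of S100a8 and S100a9. S100a3 did not pass the filter, with 0.820 and 0.333 FPKM and about 24 and 11 reads. Its log2 fold change was −1.11 both before and after the length trend was removed. S100g and S100a3 were named after their values were seen. Retnla, which lies 28.2 kb from Retnlg and is made by alternatively activated macrophages, had 40.4 and 29.2 FPKM, a log2 fold change of −0.50 (−0.84 to −0.16). Its interval overlaps that of Retnlg (−1.25 to −0.72).
Camp, Ngp and Ltf lie on the same stretch of chromosome 9, with gaps of 570.1 kb between Camp and Ngp and 596.3 kb between Ngp and Ltf. Of the genes nearest to them, Nme6, 4.3 kb from Camp, was lower as well, with a log2 fold change of −1.40. Klhl18, 2.9 kb from Ngp, had 0.05, and Ccrl2, 11.7 kb from Ltf, had −0.02. Around Lcn2, the neighbours 1110008P14Rik at 2.7 kb (−0.94) and Ptges2 at 7.6 kb (−1.14) were lower as well. In all, of 16 neighbours of the 9 lower members, 5 were at least 1.5-fold lower and 3 at least 1.5-fold higher. Their median was −0.15. Among all genes that averaged 1 FPKM or more, 13.2% were lower and 12.9% higher. Mks1, 1 of the 3 higher, had 0.811 and 1.46 FPKM and averaged above 1 FPKM only through its αSMACreER;Foxf1 fl/fl value. The lower ones include Prtn3 and S100a6, described above. Neighbours that are on no other list were named after their values were seen.

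Markers of other cells were read from the same libraries. The cells are labelled stromal, and the 8 stellate cell and myofibroblast markers summed to 209.7 FPKM in Foxf1 fl/fl and 302 FPKM in αSMACreER;Foxf1 fl/fl cells, mostly from Dcn and Col1a1. Acta2, the smooth muscle actin gene, had 7.77 and 5.65 FPKM, and Des had 1.70 and 3.29 FPKM. Lrat and Reln of this list were named after their values were seen. The stellate cell gene Lrat had 0.078 and 0.11 FPKM. Reln had 0.683 and 0.313 FPKM, a log2 fold change of −0.94 (−1.73 to −0.59). The 6 of these markers that averaged 1 FPKM or more had a median of 0.47, or 0.26 with the length trend removed. Dcn and Col1a1, each at 0.53, then came to 0.33 and 0.19. The 10 macrophage markers summed to 8284 and 6525 FPKM, with a median log2 fold change of −0.35 and 1 of 10 at least 1.5-fold lower, or 0 with the length trend removed. The highest of them were the complement genes C1qb (1632 and 1307 FPKM), C1qa (1546 and 1142) and C1qc (1364 and 982) and the scavenger receptor gene Marco (1168 and 929). The 8 hepatocyte markers moved with the granule genes. All 8 were at least 1.5-fold lower, their sum was 3552 FPKM in Foxf1 fl/fl and 1335 FPKM in αSMACreER;Foxf1 fl/fl cells, their median log2 fold change was −1.48, and none was at 0. Alb had 2292 and 912 FPKM, Ahsg 364 and 138 FPKM, Ttr 322 and 86.8 FPKM, and Apoa1 261 and 84.2 FPKM. All 8 acute phase genes, most of them hepatocyte products, were also at least 1.5-fold lower, with a median of −1.84. Of these, 7 were with the length trend removed, and Saa3, which had 2052 and 1299 FPKM, came to −0.55. Hpx had 485 and 154 FPKM, Saa1 had 166 and 33.1 FPKM, and Orm1 had 107.6 and 30.6 FPKM. The part of hepatocyte RNA in the difference of Lcn2 and Hp was not tested.

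Blood cells differed in direction. Monocyte markers had a median log2 fold change of 0.35, with 1 of 7 at least 1.5-fold higher and 0 lower, or 0 in either direction with the length trend removed. Chil3, made by monocytes, macrophages and neutrophil precursors, had 656 and 739 FPKM, Plac8 had 507 and 378 FPKM, a log2 fold change of −0.45 (−0.51 to −0.39), Ly6c2 had 166 and 234 FPKM, and Vcan had 11.3 and 14.7 FPKM. Of 4 erythroid markers that averaged 1 FPKM or more 0 differed by 1.5-fold, with Hbb-bs at 71.5 and 82.9 FPKM, and of 3 platelet markers 0 did, with Pf4 at 64.5 and 51.4 FPKM. The summed erythroid level was 150.1 and 156.1 FPKM. Of 3 eosinophil markers 2 were at least 1.5-fold lower, and Prg2, which encodes the major basic protein of eosinophil granules, had 7.30 and 1.33 FPKM, a log2 fold change of −2.39. Of the eosinophil markers Epx was at 0.04 FPKM in Foxf1 fl/fl cells and at 0 in αSMACreER;Foxf1 fl/fl cells. The part of any of these cell types in the difference of the granule genes was not tested.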

How the data were processed

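RNA-seq was performed by the authors on adherent liver cells after CCl4, with RNA pooled into 1 library for αSMACreER;Foxf1 fl/fl and 1 for the Foxf1 fl/fl control, as single-end reads of 75 bases. The authors aligned reads with the TopHat/Cufflinks pipeline, and per the labels the build was mm10. The deposited values are FPKM per Ensembl gene with a status, and the versions of TopHat and Cufflinks are not given in the sources used here. Of 38320 entries, 36490 (95.2%) had a symbol in GENCODE M21 of GRCm38, whose coordinates are used. Entries without status OK in both libraries were left out (3 and 2 entries), and of entries that share a symbol the most highly expressed was kept.

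FPKM is not a count, so no count model was run, and with 1 library per genotype no p-value is given. The fold threshold of 1.5 follows the study's methods. Values were scaled by the median ratio, and a pseudocount of 0.1 and a filter at an average of 1 FPKM were used. Reads were estimated with an assumed fragment of 200 bases on single-transcript genes of at least 600 bases whose locus matched GENCODE, and were placed on the longest transcript. The depth of about 9760000 and 11330000 reads limits low genes such as Elane. FPKM of transcripts near the fragment length, such as S100a8, depends on that length.

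The members and lists were chosen with earlier results of these data known. Named were all members, genes from among the highest 4 of another list by mean FPKM, and a fixed set (Ly6g, Cxcr2, Cd177, Prtn3, Ctsg, Mmp8, Mmp9, Cebpe, Cybb and Chil3), and exceptions are marked. Lists for B cells, T and NK cells, mast cells and basophils, endothelial and cycling cells had medians of 0.19, 0.27, −0.73, 0.18 and −0.01. The median of mast cells and basophils rests on 2 of 5 genes and came to −0.35 with the length trend removed. These were Mcpt8, with about 12 and 8 reads, and Tpsb2, with about 44 and 31. The fold calculation was tested on simulated data with counting error only, at the estimated read numbers. The simulation held no length trend and no differences between mice. It therefore did not check the length subtraction or the read estimates. Alternatives changed the pseudocount, scaling, filter, threshold, length trend and repeated symbols. Calculations used scipy 1.17.1, pandas 2.3.3 and numpy 2.4.6 under Python 3.11.15, and plots matplotlib 3.10.9.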

Additional observations from a re-analysis of the deposited data

How the results depend on the processing

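No paired analysis was possible because there was 1 pooled library of each genotype, and no replicate could be left out. The 9 lower members and 0 higher members were the same in number under pseudocounts of 1 and 0.01, FPKM as deposited, an equal FPKM sum, upper-quartile scaling and summed entries. With the length trend removed or at 2-fold, 8 were lower. The members' median log2 fold change of −1.33 came to −1.13 with an equal FPKM sum, which shifted all genes by 0.20, and to −1.002 with the length trend removed. These settings each moved 6 members past their counting interval, and none changed direction. Over all genes, 1662 were higher by 1.5-fold or more and 1697 lower, against 2820 and 1121 with an equal FPKM sum, 3978 and 3304 without a filter, 692 and 953 with the filter at 5 FPKM, and 581 and 800 at 2-fold. Elane, at about 6 reads in αSMACreER;Foxf1 fl/fl cells, is limited most by depth and ranged from −3.07 to −1.99.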

Other observations

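Genes that call neutrophils into tissue or hold them in bone marrow were read beside the granule genes. Of 14 such genes, 3 were at least 1.5-fold lower in αSMACreER;Foxf1 fl/fl cells and 1 at least 1.5-fold higher, with a median log2 fold change of −0.17. Csf3, which encodes G-CSF, the ligand of Csf3r, had 138 FPKM in Foxf1 fl/fl cells and 89.2 FPKM in αSMACreER;Foxf1 fl/fl cells, a log2 fold change of −0.66 (−0.77 to −0.55), and it was named after its value was seen, as were Il17a and Cxcr4. The chemokine genes Cxcl1 (1203 and 1236 FPKM) and Cxcl2 (2399 and 1722 FPKM) had log2 fold changes of 0.01 and −0.50. Il1b, for an inflammatory cytokine, had 1623 and 1111 FPKM (−0.57). Ccl3 had 1348 and 806 FPKM (−0.77), and Il17a had about 19 and 9 reads (−1.25). Il17a averaged above 1 FPKM only through its Foxf1 fl/fl value. Cxcr4, the receptor that holds young neutrophils in bone marrow and is expressed by many leukocytes, had 129.8 and 198.8 FPKM, a log2 fold change of 0.59. With the length trend removed 1 gene of this list was lower, Il17a at −0.90, and 1 higher, Cxcr4 at 0.83. Csf3 and Ccl3 each came to −0.36 and no longer passed 1.5-fold.

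Tlr4, a receptor for calprotectin, had 4.83 FPKM in Foxf1 fl/fl cells and 10.5 FPKM in αSMACreER;Foxf1 fl/fl cells, a log2 fold change of 1.09 (0.85 to 1.35), and it remained at least 1.5-fold higher with the length trend removed (0.97). Ager, another calprotectin receptor, had 2.62 and 2.73 FPKM. Slc22a17, a receptor for lipocalin 2, had 2.12 and 1.53 FPKM, a log2 fold change of −0.47, which came to −0.66 with the length trend removed. Slpi, an inhibitor of neutrophil elastase, had 788 and 710.5 FPKM, and 0 of 4 serine protease inhibitor genes passed 1.5-fold.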
